A study of Mus musculus with 4 samples.

Results

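The VEGF and angiopoietin genes were examined as chromatin regions in mouse fibroblastic reticular cells (FRCs), fibroblasts that form the supporting network of lymph nodes. The set comprised 5 ligand genes (Vegfa, Vegfb, Vegfc, Angpt1 and Angpt2) and 5 receptor genes (Flt1, Kdr, Flt4, Tek and Tie1). The assay was ATAC-seq, which uses a transposase to cut and tag open DNA. Windows of 300 bp were joined into a region where gaps between them were at most 100 bp, and each region was represented by its window of highest summed count. A region belonged to a protein-coding gene that the midpoint of this window overlapped, or otherwise to the nearest gene within 100 kb. This gave 87 regions of 110110 in all, 42 at ligand genes and 45 at receptor genes. Among the ligands, Vegfa had 9 regions, Vegfb 1, Vegfc 5, Angpt1 21 and Angpt2 6. Among the receptors, Flt1 had 18, Kdr 12, Flt4 5, Tek 9 and Tie1 1. A gene named here is a position, not a shown target of its regions, and accessibility is not a level of RNA or protein.

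There were 2 libraries named Notch2_cKO, from C57BL/6 mice that carried Ccl19-Cre and Notch2 fl/fl, and 2 control libraries, from Notch2 fl/fl littermates named without Ccl19-Cre. Both groups therefore carried the floxed Notch2 allele. Cre was driven by Ccl19 regulatory sequence, so deletion of Notch2 is limited to cells with present or past activity of that driver. Each library was a pool of 6 mice of 12 weeks, labelled female, and used 50000 cells sorted from brachial, axillary and inguinal lymph nodes as BP3hi, Pdpn+, CD31- and CD45-.

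VEGF-A signals to endothelial cells mainly through the kinase receptor Kdr, while Flt1 binds it tightly, signals weakly and can act as a decoy. VEGF-C acts through Flt4 on lymphatic endothelium. Angiopoietin-1, made by perivascular and mesenchymal cells, activates the endothelial receptor Tek (also called Tie2), angiopoietin-2 can oppose it, and Tie1 is a partner of Tek without an established ligand of its own. FRCs are known as a source of VEGF-A in the mouse lymph node, whereas the receptors are best known from endothelium, which the CD31- gate was meant to leave out.

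The 250 bases before the start site are shown for 4 genes that the results turn on, the receptor gene whose start region opened (Tek), a receptor gene whose upstream regions opened while its start region did not pass the test (Flt1), and for contrast the main VEGF receptor and VEGF ligand (Kdr and Vegfa). They come from RefSeq (GRCm38.p6) and are written 5′ to 3′ on the strand of the gene. The RefSeq gene spans of Flt1, Kdr and Tek reach farther 5′ than the start sites used. The Flt1 and Kdr sequences therefore lie wholly inside the gene span, and the Tek sequence mostly so. Of the 10 genes, 8 matched a promoter entry, and Angpt1 and Angpt2 did not. Capitals mark matches to any of 4 motifs searched on both strands, RBPJ, the DNA-binding partner of Notch (TGGGAA, reverse TTCCCA), AP-1 (TGANTCA), the hypoxia response element (ACGTG, reverse CACGT) and ETS factors (CGGAAG, reverse CTTCCG). Matches to different motifs did not overlap each other.
Tek, chr4:94739039-94739288, plus strand: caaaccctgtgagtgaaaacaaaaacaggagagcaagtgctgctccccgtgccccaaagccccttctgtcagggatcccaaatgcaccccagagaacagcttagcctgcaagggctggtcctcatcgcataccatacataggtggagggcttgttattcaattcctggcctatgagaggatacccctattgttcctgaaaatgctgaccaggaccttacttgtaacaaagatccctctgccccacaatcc
Flt1, chr5:147726012-147726261, minus strand: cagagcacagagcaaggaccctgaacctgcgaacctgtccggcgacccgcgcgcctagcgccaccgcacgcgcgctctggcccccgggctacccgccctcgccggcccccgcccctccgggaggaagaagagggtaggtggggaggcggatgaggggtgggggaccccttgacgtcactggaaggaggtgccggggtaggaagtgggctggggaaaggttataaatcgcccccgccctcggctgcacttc
Kdr, chr5:75978456-75978705, minus strand: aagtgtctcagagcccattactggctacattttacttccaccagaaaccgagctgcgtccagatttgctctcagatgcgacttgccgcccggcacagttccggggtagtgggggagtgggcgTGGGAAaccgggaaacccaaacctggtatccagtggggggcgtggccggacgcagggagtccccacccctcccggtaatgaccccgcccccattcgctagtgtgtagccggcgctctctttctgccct
Vegfa, chr17:46032378-46032627, minus strand: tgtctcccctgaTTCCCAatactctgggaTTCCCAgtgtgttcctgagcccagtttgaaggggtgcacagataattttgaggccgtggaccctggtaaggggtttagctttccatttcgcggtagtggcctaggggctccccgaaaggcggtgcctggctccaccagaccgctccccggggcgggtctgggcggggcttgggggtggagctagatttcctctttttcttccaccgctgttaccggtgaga

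The Vegfa sequence shown held the RBPJ letters at 238 and 221 bases before the start, and the Kdr sequence at 128 bases. RefSeq has a second Vegfa start (chr17:46025163), with no region over the 250 bases before it, which are not shown. These 250 bases, which lie inside the Vegfa gene, held the RBPJ letters at 87 and 12 bases before that start. The letters of the hypoxia response element stood at 211 bases before it. The Tek and Flt1 sequences held no exact match to the letters of the 4 motifs in this window, and variants of these letters were not searched. Of 32851 RefSeq promoters of the same length, 21.6% held the RBPJ letters, 6.75% AP-1, 16.6% the hypoxia response element and 13.6% ETS. The Tek sequence had a GC content of 51.2% with 2 CG dinucleotides, against a median of 52.4% and 6 over all promoters. The Flt1 sequence had a GC content of 70.4% with 23 CG dinucleotides, the Kdr sequence 61.6% with 16 and the Vegfa sequence 59.2% with 11. The regions that changed most at Tek and Flt1, described below, lie outside the sequences shown.

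The best windows of all regions summed to 30260067 and 12340742 counts in Notch2_cKO replicates 1 and 2, and to 23629588 and 25740366 in control replicates 1 and 2. Levels are normalized CPM, counts scaled to depth after a loess adjustment, and changes are log2 ratios, Notch2_cKO over control, with a standard error (SE) approximated from the test. With edgeR's quasi-likelihood test and a Benjamini-Hochberg adjusted p under 0.05, 13786 regions were higher and 12324 lower, so that 52.8% of calls were higher, or 40.5% with each library centred on its median. Control replicate 2 went against its label. The Y-linked genes Ddx3y, Eif2s3y, Kdm5d and Uty had 221, 201, 95 and 139 counts in that library and 0 or 1 in each other library, so results are also given without control replicate 2. At the start of the targeted gene Notch2 the counts were 1636 and 542 in Notch2_cKO and 1361 and 1527 in control libraries, a log2 change of -0.14 with an edgeR Benjamini-Hochberg adjusted p of 0.341. An open start region does not check the deletion. Regions within 1000 bp of a gene end were found at 12 of 14 reticular fibroblast marker genes, at 1.53 to 65.3 CPM. They were found at 4 of 11 blood endothelial marker genes, at 2.52 to 7.55 CPM, with none at Pecam1 (which encodes CD31) or Cdh5. Lymphatic markers had them at 2 of 6 genes (7.85 to 11.4 CPM), leukocyte markers at 3 of 9 (6.80 to 33.1 CPM, with none at Ptprc, which encodes CD45) and mural markers at 7 of 8 (4.68 to 69.1 CPM).

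At the 87 VEGF and angiopoietin regions, 19 were higher in Notch2_cKO and 14 were lower, and 54 did not pass the test. Receptor regions were more often higher than lower, with 13 higher and 4 lower of 45. Ligand regions were more often lower than higher, with 6 higher and 10 lower of 42, but with regions given to the gene of the nearest gene end 9 were higher and 7 lower of 47. The called share was 37.9% of the 87 regions, 37.8% at receptors and 38.1% at ligands, beside a background of 23.7% over all regions (12.5% higher and 11.2% lower). Both Notch2_cKO libraries lay beyond both controls in 72.4% of the 87 regions, 32 above and 31 below, beside 59.9% of all regions.

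Summed over the receptor regions, the level was 325 and 324 CPM in the Notch2_cKO libraries and 264 and 242 CPM in the control libraries, a ratio of means of 1.28. Summed over the ligand regions, it was 311 and 336 CPM in Notch2_cKO and 335 and 326 CPM in control libraries, a ratio of 0.979. The receptor sums of the groups did not overlap and the ligand sums did. The median log2 change was 0.11 over receptor regions, -0.07 over ligand regions and 0.01 over all 110110. Libraries of 1 group differed by an SD of 0.07 in the receptor median and 0.02 in the ligand median, on the log2 scale. With each library left out in turn, the receptor median ranged from 0.02 to 0.26 and the ligand median from -0.19 to -0.02. With regions given to the gene of the nearest gene end, the ligand median was 0.00. The difference between the classes was not tested, because regions of a gene share a locus and are not independent.

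The class counts rested largely on single genes. Angpt1 held 8 of the 10 lower ligand regions, or 5 of 7 with the nearest gene end, and the other ligands together had 4 higher and 2 lower of 21. Flt1 and Tek held 12 of the 13 higher receptor regions. Without Flt1, 6 of 27 receptor regions were higher and 2 were lower, and their median log2 change was -0.02. Without control replicate 2 the counts were 8 higher and 2 lower at receptors and 3 higher and 7 lower at ligands, 11 higher and 9 lower in all. Without control replicate 1 they were 13 higher and 1 lower at receptors and 6 higher and 6 lower at ligands, 19 higher and 7 lower in all.

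**Figure D1:**
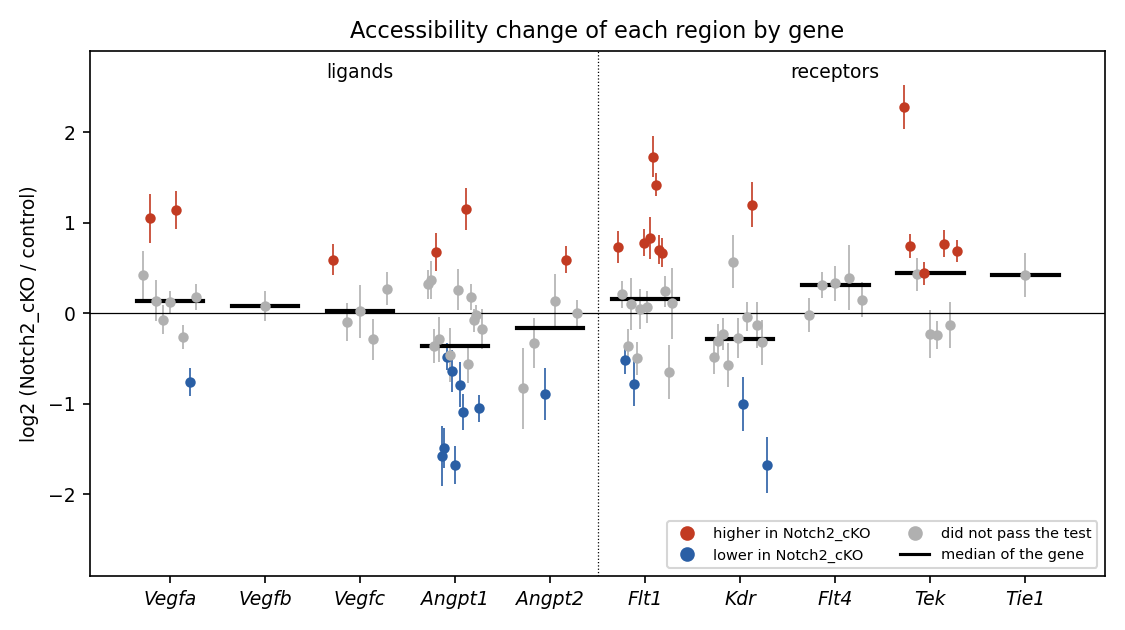
Log2 change (Notch2_cKO over control) of each of the 87 regions, ordered by position within each gene. Points are estimates, vertical lines 1 SE, and horizontal bars the median of each gene. Tek and Flt1 hold most of the higher receptor regions, and Angpt1 holds 8 of the 10 lower ligand regions.

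**Figure D2:**
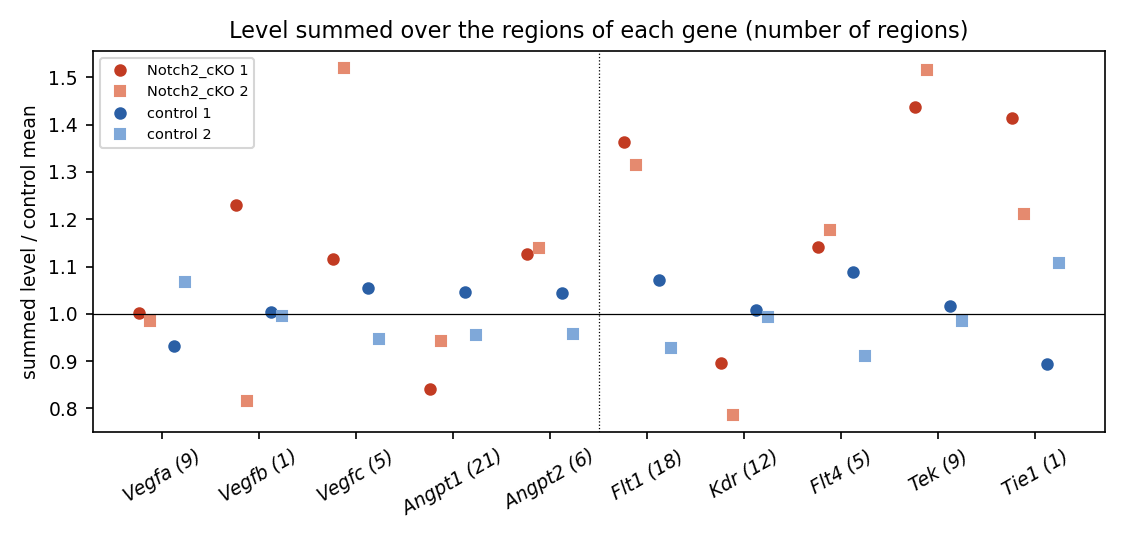
Level summed over the regions of each gene in each library, divided by the mean of the 2 control libraries (number of regions in parentheses). Both Notch2_cKO libraries lie above both controls at Vegfc, Angpt2, Flt1, Flt4, Tek and Tie1 and below both at Angpt1 and Kdr. For comparison, both lay beyond both controls in 59.9% of all single regions. No region of Flt4 or Tie1 passed the test, and at Vegfc 1 of 5 did.

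Among the VEGF ligands, 3 of 15 regions were higher and 1 was lower, and no region at a start site passed the test. At Vegfa, which encodes the main angiogenic VEGF, the start region (chr17:46032151-46032550) had 29.5 and 30.4 CPM in Notch2_cKO and 24.1 and 30.8 CPM in control libraries. The groups overlapped, and the log2 change was 0.12 (SE 0.13, edgeR Benjamini-Hochberg adjusted p = 0.533). The 9 Vegfa regions summed to 93.3 and 91.8 CPM in Notch2_cKO and 86.8 and 99.5 CPM in control libraries, which also overlapped.

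The 3 Vegfa regions that passed the test all lay outside the gene. A region 21.2 kb upstream of the start (chr17:46053201-46053800) had 4.54 and 4.17 CPM in Notch2_cKO and 1.99 and 1.99 CPM in control libraries. It was higher in both Notch2_cKO libraries than in either control, with a log2 change of 1.14 (SE 0.21, edgeR Benjamini-Hochberg adjusted p = 0.000464). A region 28.0 kb on the downstream side of the start (chr17:46004201-46004600) had 2.13 and 2.78 CPM in Notch2_cKO and 1.12 and 1.17 CPM in control libraries. The groups were apart again, with a log2 change of 1.05 (SE 0.27, edgeR Benjamini-Hochberg adjusted p = 0.00698), although DESeq2 gave an adjusted p of 0.0846.

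The other Vegfa region, 31.1 kb upstream (chr17:46063201-46063850), went the other way, with 7.04 and 5.61 CPM in Notch2_cKO and 10.8 and 11.2 CPM in control libraries. Its log2 change was -0.76 (SE 0.16, edgeR Benjamini-Hochberg adjusted p = 0.00173). All 3 also passed the test without control replicate 2.

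Vegfb, which encodes a ligand of Flt1, had 1 region, at its start (chr19:6987351-6987950), with 11.3 and 7.49 CPM in Notch2_cKO and 9.22 and 9.15 CPM in control libraries. The groups overlapped (log2 change 0.08, SE 0.17, edgeR Benjamini-Hochberg adjusted p = 0.783), and the region also stood 311 bp from Dnajc4. At Vegfc, the lymphatic growth factor, an intragenic region (chr8:54089801-54090500) had 19.5 and 30.9 CPM in Notch2_cKO and 18.2 and 14.7 CPM in control libraries. The log2 change was 0.59 (SE 0.17, edgeR Benjamini-Hochberg adjusted p = 0.017), and Notch2_cKO replicate 2 stood well above the other 3 libraries. It did not pass without that library (log2 change 0.25, adjusted p = 0.158) or without control replicate 2 (log2 change 0.45, adjusted p = 0.134, both with edgeR). The region nearest the Vegfc start (chr8:54076951-54077450) was assigned to Gm33153 and is no member. It had 53.2 and 44.3 CPM in Notch2_cKO and 49.8 and 53.8 CPM in control libraries, overlapping groups with a log2 change of -0.08.

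The VEGF receptor genes had 8 higher and 4 lower of 35 regions, and 7 of the 8 higher ones were at Flt1. At Flt1, 7 of 18 regions were higher and 2 lower, and the regions upstream of the start accounted for 5 of the higher ones. These 5 were neighbours, with no other region between them, from chr5:147736651 to 147758650. Summed over all 8 upstream regions, the level was 71.7 and 66.0 CPM in Notch2_cKO and 39.1 and 35.2 CPM in control libraries, a ratio of means of 1.85.

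The most open of the 5 lay 22.2 kb upstream (chr5:147747901-147748600) and had 30.5 and 27.3 CPM in Notch2_cKO and 9.97 and 11.6 CPM in control libraries. In Notch2_cKO it was the most open Flt1 region, above the start region in both libraries, while in control libraries the 2 were near each other. Its log2 change was 1.42 (SE 0.13, edgeR Benjamini-Hochberg adjusted p = 4.66e-07). A region 16.8 kb upstream (chr5:147742501-147743150) had 4.32 and 3.78 CPM in Notch2_cKO and 1.28 and 1.19 CPM in control libraries, a log2 change of 1.73 (SE 0.23, edgeR Benjamini-Hochberg adjusted p = 2.1e-05). In both regions the groups were well apart.

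The remaining 3 of the run rose less. The region 25.8 kb upstream had 9.42 and 8.55 CPM in Notch2_cKO and 5.95 and 5.24 CPM in control libraries (log2 change 0.70, SE 0.16), and that 32.3 kb upstream had 12.4 and 10.8 CPM against 7.80 and 6.98 CPM (0.67, SE 0.16). The region 11 kb upstream had 5.18 and 6.02 CPM in Notch2_cKO and 4.01 and 2.26 CPM in control libraries (0.83, SE 0.23). Their adjusted p-values with edgeR and Benjamini-Hochberg were 0.00403, 0.00371 and 0.0114. The groups were apart in all 3, but the control libraries of the last differed from each other by more than Notch2_cKO replicate 1 differed from control replicate 1. Without control replicate 2 none of these 3 passed (adjusted p = 0.081, 0.0822 and 0.273), whereas the regions 22.2 and 16.8 kb upstream did.

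The Flt1 start region (chr5:147725501-147726000) had 13.1 and 9.32 CPM in Notch2_cKO and 12.5 and 9.35 CPM in control libraries. The groups overlapped, with a log2 change of 0.07 (SE 0.18, edgeR Benjamini-Hochberg adjusted p = 0.812). Inside the gene 1 of 8 regions was higher and 2 were lower. The higher one, 9.41 kb into the gene (chr5:147716251-147716850), had 14.3 and 15.2 CPM in Notch2_cKO and 9.17 and 8.0 CPM in control libraries, groups apart with a log2 change of 0.78 (SE 0.15, edgeR Benjamini-Hochberg adjusted p = 0.000657). The lower ones (chr5:147564051-147564650 and chr5:147620051-147620650) had log2 changes of -0.52 and -0.78. Neither passed without control replicate 1 (adjusted p = 0.137 and 0.426), and the first passed in 1 of the 4 fits that each left out a library. A region beyond the far end of the gene was higher as well (chr5:147558351-147558900, log2 change 0.73, edgeR Benjamini-Hochberg adjusted p = 0.00512), though not without control replicate 2 (adjusted p = 0.0722). Without control replicate 2, 3 Flt1 regions were higher and 1 was lower.

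Kdr, the main signalling receptor for VEGF-A, had 1 higher and 2 lower of 12 regions, and its summed level was 36.0 and 31.6 CPM in Notch2_cKO and 40.5 and 39.9 CPM in control libraries. Its start region (chr5:75978201-75978750) had 8.54 and 6.93 CPM in Notch2_cKO and 7.81 and 8.44 CPM in control libraries, overlapping groups with a log2 change of -0.04 (SE 0.16). A region 29.9 kb upstream (chr5:76008151-76008700) was higher, with 2.88 and 2.47 CPM in Notch2_cKO and 1.22 and 1.16 CPM in control libraries (log2 change 1.20, SE 0.25, edgeR Benjamini-Hochberg adjusted p = 0.00159). A region 73.4 kb upstream (chr5:76051551-76052050) was lower, with 0.858 and 0.385 CPM against 2.27 and 2.26 CPM (log2 change -1.68, SE 0.31, edgeR Benjamini-Hochberg adjusted p = 0.000559), and the second Notch2_cKO value rests on 5 counts. The groups were apart in both, and both passed without control replicate 2. The other lower region, inside the gene (chr5:75933551-75933950, log2 change -1.0, edgeR Benjamini-Hochberg adjusted p = 0.0204), passed in 1 of those 4 fits. It did not pass with DESeq2 (adjusted p = 0.261).

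At Flt4, the VEGF-C receptor, none of 5 regions passed the test. Its start region (chr11:49609451-49609850) had 12.8 and 13.5 CPM in Notch2_cKO and 11.1 and 10.1 CPM in control libraries, groups apart but a log2 change of 0.31 with an edgeR Benjamini-Hochberg adjusted p of 0.129. The median log2 change of the 5 regions was 0.31. The 133 other regions within 1 Mb of Flt4 had a median log2 change of 0.30, with 23 higher and 2 lower, so the regions of Flt4 stood close to their surroundings. For Flt1 the 112 other regions within 1 Mb had a median log2 change of -0.01, with 11 higher and 12 lower.

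Among the angiopoietin regions, 3 of 27 were higher and 9 were lower, and 8 of the lower ones were at Angpt1, the activating ligand of Tek. At Angpt1, 8 of 21 regions were lower and 2 higher, with a median log2 change of -0.36. The strongest fall was inside the gene (chr15:42593551-42594150), with 1.68 and 1.85 CPM in Notch2_cKO and 5.47 and 5.71 CPM in control libraries (log2 change -1.68, SE 0.21, edgeR Benjamini-Hochberg adjusted p = 9.05e-06). Another intragenic region (chr15:42537051-42537650) had 1.85 and 1.54 CPM against 5.45 and 4.37 CPM in control libraries (-1.49, SE 0.22, edgeR Benjamini-Hochberg adjusted p = 6.55e-05). In both, each Notch2_cKO library lay far below each control. A further one (chr15:42626151-42626700) had 2.49 and 2.78 CPM in Notch2_cKO and 5.74 and 5.31 CPM in control libraries, a log2 change of -1.09 (SE 0.20).

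A more open Angpt1 region that fell lay outside the gene, 17.7 kb beyond its high-coordinate end (chr15:42694351-42695000). It had 6.45 and 6.40 CPM in Notch2_cKO and 14.0 and 12.6 CPM in control libraries, groups apart with a log2 change of -1.05 (SE 0.15, edgeR Benjamini-Hochberg adjusted p = 5.93e-05). A region of 0.662 and 0.538 CPM in Notch2_cKO and 1.57 and 2.16 CPM in control libraries fell by 1.58 on the log2 scale (chr15:42535601-42536000, edgeR Benjamini-Hochberg adjusted p = 0.00135). These 5 regions also passed without control replicate 2 and without each other library. The remaining 3 lower regions changed by -0.48, -0.64 and -0.79, and each passed in 1 or 2 of those 4 fits, so that 5 Angpt1 regions were lower without control replicate 1.

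The region that rose most at Angpt1 (chr15:42628551-42629100) was next to one that fell and had 3.35 and 3.86 CPM in Notch2_cKO and 1.54 and 1.63 CPM in control libraries, a log2 change of 1.15 (SE 0.23, edgeR Benjamini-Hochberg adjusted p = 0.000954). The other higher region (chr15:42483651-42484300, log2 change 0.68) did not pass without control replicate 2. The region at the high-coordinate end of the gene (chr15:42675951-42676500) had 32.0 and 33.8 CPM in Notch2_cKO and 33.6 and 33.0 CPM in control libraries, overlapping groups with a log2 change of -0.02 (SE 0.11). It was the most open of the 87 regions, so the regions that fell at Angpt1 were less open than the one at this end. Summed over the gene, the level was 147 and 165 CPM in Notch2_cKO and 183 and 167 CPM in control libraries, groups barely apart. The 62 other regions within 1 Mb of Angpt1 had a median log2 change of -0.29, with 13 lower and 4 higher. Whether the fall at Angpt1 goes beyond its surroundings was not tested.

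**Figure D3:**
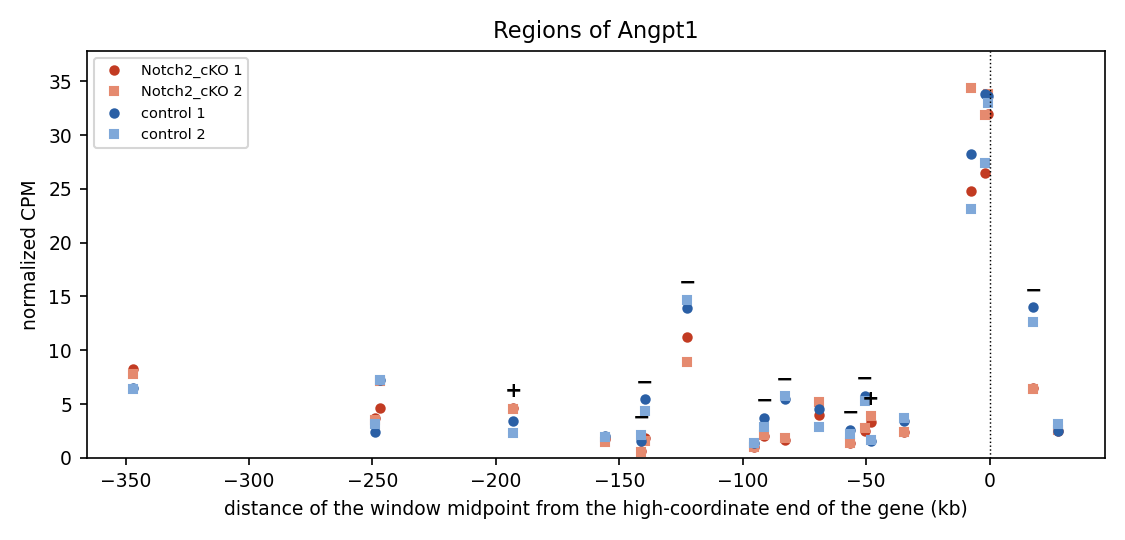
Normalized CPM of the 21 Angpt1 regions in each library, by distance in kb from the high-coordinate end of the gene. Plus and minus signs mark regions that passed the test as higher or lower in Notch2_cKO. The most open regions, near the end at 0, did not pass, while 7 regions inside the gene and 1 beyond it were lower.

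Angpt2, the angiopoietin that can oppose Angpt1, had 1 higher and 1 lower of 6 regions, and all 6 also lay inside Mcph1. The higher one (chr8:18726851-18727400) had 13.3 and 14.7 CPM in Notch2_cKO and 9.79 and 8.79 CPM in control libraries, groups apart with a log2 change of 0.59 (SE 0.15, edgeR Benjamini-Hochberg adjusted p = 0.00626). It did not pass without control replicate 2 (adjusted p = 0.129). The lower one (chr8:18719501-18719900) had 1.02 and 0.769 CPM in Notch2_cKO and 1.62 and 1.87 CPM in control libraries (log2 change -0.89, edgeR Benjamini-Hochberg adjusted p = 0.0332), and with DESeq2 its adjusted p was 0.28. It passed in 1 of the 4 fits that each left out a library, and not without control replicate 2 (adjusted p = 0.237). The region at the high-coordinate end had 9.65 and 8.82 CPM in Notch2_cKO and 9.67 and 8.91 CPM in control libraries, a log2 change of 0.00 (SE 0.15). The 45 other regions within 1 Mb had a median log2 change of 0.31, with 12 higher and 1 lower.

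At Tek, the angiopoietin receptor, 5 of 9 regions were higher in Notch2_cKO and none was lower. Its summed level was 112 and 118 CPM in Notch2_cKO and 79.1 and 76.7 CPM in control libraries, a ratio of means of 1.47. The start region (chr4:94738651-94739250), whose window centre lay 289 bp upstream of the start and which reaches into the Tek sequence shown above, had 23.7 and 26.3 CPM in Notch2_cKO and 15.7 and 14.0 CPM in control libraries. The groups were apart, with a log2 change of 0.74 (SE 0.13, edgeR Benjamini-Hochberg adjusted p = 0.000313). Of 6 member regions over a promoter window this was the 1 that passed, and over all genes 9.73% of such regions passed.

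The largest change of the 87 regions lay 13.3 kb upstream of Tek (chr4:94725701-94726300), with 5.51 and 4.71 CPM in Notch2_cKO and 1.24 and 0.914 CPM in control libraries. Both control libraries were low, and the log2 change was 2.28 (SE 0.24, edgeR Benjamini-Hochberg adjusted p = 1.39e-06). The most open Tek region in Notch2_cKO lay 120 kb into the gene (chr4:94859001-94859700), with 28.4 and 32.6 CPM in Notch2_cKO and 18.4 and 19.1 CPM in control libraries (log2 change 0.69, SE 0.12, edgeR Benjamini-Hochberg adjusted p = 0.000334). A region 71.6 kb into the gene (chr4:94810501-94811250) had 12.7 and 14.1 CPM in Notch2_cKO and 8.24 and 7.38 CPM in control libraries (log2 change 0.77, SE 0.15, edgeR Benjamini-Hochberg adjusted p = 0.000972).

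Groups were apart in each of these Tek regions, and each passed without control replicate 2, with log2 changes of 0.67 at the start, 2.05 upstream and 0.73 and 0.68 inside the gene. The fifth, 13.4 kb into the gene (chr4:94752351-94753000), had 23 and 21.7 CPM in Notch2_cKO and 18.1 and 14.8 CPM in control libraries, a log2 change of 0.44 (SE 0.13, edgeR Benjamini-Hochberg adjusted p = 0.0204). It did not pass without control replicate 2 (adjusted p = 0.382), with each library centred on its median (adjusted p = 0.0667) or with DESeq2 (adjusted p = 0.0753). The 98 other regions within 1 Mb of Tek had a median log2 change of -0.14, with 17 higher and 16 lower. Tie1, the partner of Tek, had 1 region, 24.0 kb from its start and beyond the gene (chr4:118465551-118466150), with 2.71 and 2.32 CPM in Notch2_cKO and 1.71 and 2.12 CPM in control libraries. The groups were apart, but the change of 0.42 (SE 0.24) had an edgeR Benjamini-Hochberg adjusted p of 0.223.

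**Figure D4:**
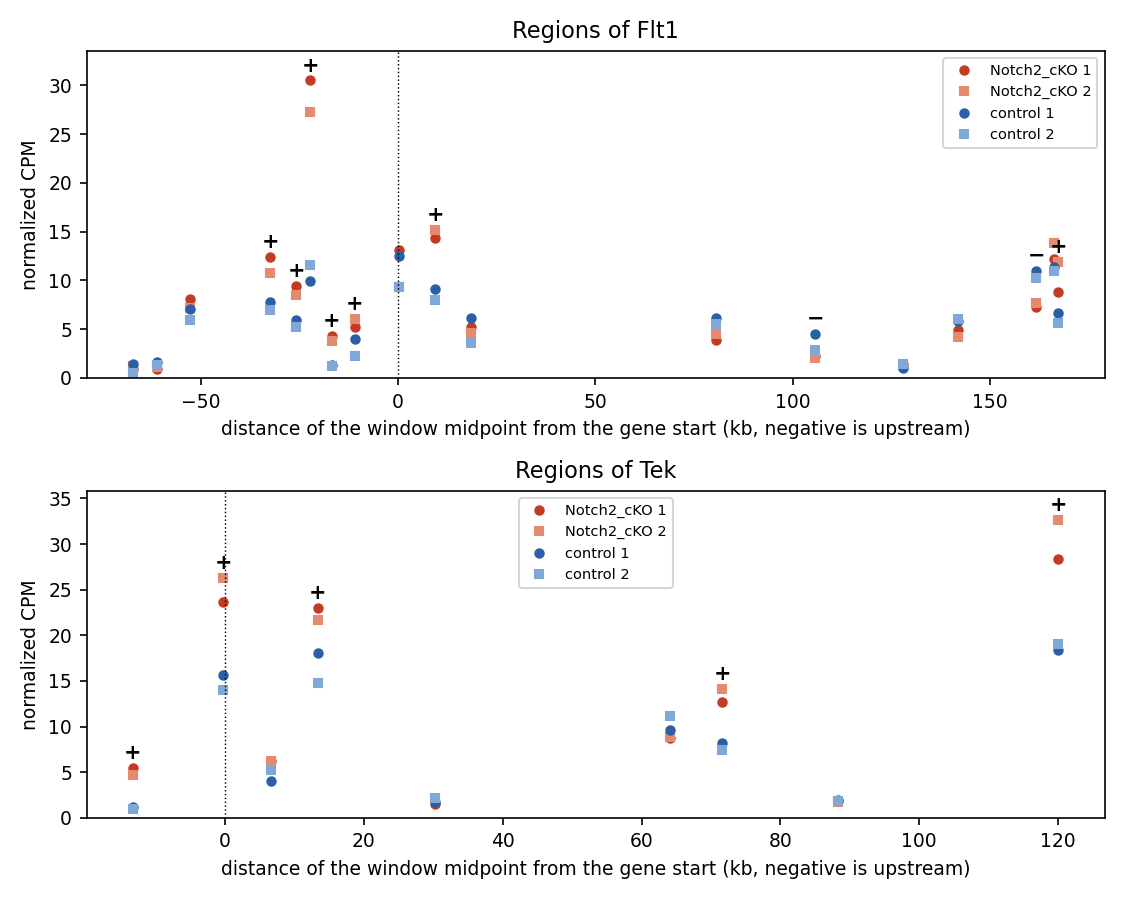
Normalized CPM of the 18 Flt1 regions (top) and 9 Tek regions (bottom) in each library, by distance in kb from the start of the gene, negative upstream. Plus and minus signs mark regions that passed the test as higher or lower in Notch2_cKO. At Flt1 the 5 higher upstream regions stand apart from a start region whose groups overlapped, while at Tek the start region itself was higher.

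Because Tek and Flt1 are used by endothelial and mural cells, markers of both were measured in the same libraries. Over 80 regions at 11 blood endothelial marker genes, the summed level was 506 and 489 CPM in Notch2_cKO and 484 and 471 CPM in control libraries, with 9 regions higher and 6 lower (18.8% called, beside 23.7% of all regions), or 7 higher and 10 lower with each library centred on its median. The 6 lower ones were 3 of 13 regions at Vwf, 2 of 16 at Erg and 1 of 12 at Cdh5. The 9 higher ones were 3 of 12 regions at Cdh5, 2 of 12 at Pecam1 and 1 each at Emcn, Eng, Plvap and Robo4. Among them were a region 78363 bp from Cdh5, with 32.7 and 24.6 CPM against 6.82 and 8.34 CPM in control libraries (log2 change 1.93), one inside Eng (1.50) and one 73112 bp from Emcn (1.94). Their edgeR Benjamini-Hochberg adjusted p-values were 1.03e-07, 2.56e-05 and 0.000258. Without control replicate 1, 5 were higher, and without control replicate 2, 2 were lower.

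Over 76 regions at 8 mural marker genes, the summed level was 643 and 698 CPM in Notch2_cKO and 677 and 664 CPM in control libraries, with 5 regions higher and 9 lower (18.4% called). A region of Kcnj8 (log2 change 1.84) and a region of Rgs5 (1.40) were higher, and 1 of Mcam (-0.79) was lower. At the mural gene ends, looked at after the values were seen, Notch3 (-0.84), Acta2 (-0.48) and Myh11 (-0.43) were lower. Their edgeR Benjamini-Hochberg adjusted p-values were 0.00153, 0.0258 and 0.0104. The gene ends of Cspg4 (-0.49), Rgs5 (0.02), Kcnj8 (0.10) and Abcc9 (0.29) did not pass. No blood endothelial gene end passed, with log2 changes of -0.03 at Eng, 0.17 at Cldn5, 0.12 at Erg and -0.20 at Plvap. Without Notch2_cKO replicate 2, 10 mural regions were higher, and without either control 5 were lower. The part that endothelial or mural cells have in the Flt1 and Tek values was not tested. In these bulk libraries more cells with an open region and more opening per cell cannot be told apart.

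The levels of the 300-bp windows at gene starts, or at the high-coordinate end for the angiopoietins, were then compared among the genes. The region near the Vegfc start, at 53.2 and 44.3 CPM in Notch2_cKO and 49.8 and 53.8 CPM in control libraries, lay above all of them but was assigned to Gm33153, and Tie1 had no member region at its start. Among the other 8 genes the order in Notch2_cKO libraries was Angpt1, Vegfa, Tek, Flt4, Flt1, Vegfb, Angpt2 and Kdr. Angpt1, Vegfa and Tek each lay above the next gene in both libraries. Below them the libraries of Flt4 and Flt1, of Flt1 and Vegfb and of Vegfb and Angpt2 overlapped, and Kdr, at 8.54 and 6.93 CPM, lay just under Angpt2. In control libraries Tek, at 15.7 and 14.0 CPM, lay above Flt1 at 12.5 and 9.35 CPM and Flt4 at 11.1 and 10.1 CPM, while Flt1 and Flt4 overlapped. Tek thus followed Angpt1 and Vegfa in both groups and was nearer to Vegfa in Notch2_cKO.

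**Figure D5:**
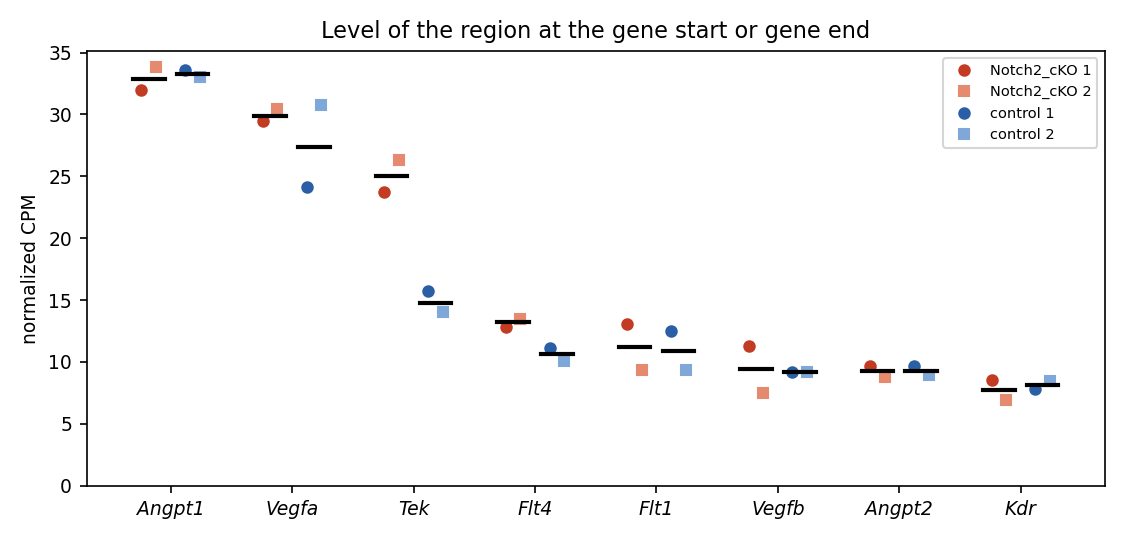
Normalized CPM of the region at the start of each gene with a member region there (high-coordinate end for Angpt1 and Angpt2) in each library, without Vegfc and Tie1, with Notch2_cKO left of control within a gene and bars at the group means. The groups differ past the test threshold at Tek alone among these 8 regions.

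By position, of the 35 regions outside genes 11 were higher and 3 lower, and of the 52 inside a gene 8 were higher and 11 lower. That is 31.4% higher and 8.57% lower outside genes, where all regions outside genes had 12.6% and 11.8%. Inside a gene it is 15.4% higher and 21.2% lower, where all regions inside a gene had 12.5% and 10.5%. Single loci carried much of this split. The regions upstream of Flt1 were 5 of the 11 higher ones outside genes, and Angpt1 held 7 of the 11 lower ones inside. The Tek start region, 86 bp from the gene, was counted as outside. The farthest members were regions 94717 bp from Angpt1 (log2 change 0.32) and 97077 bp from Kdr (-0.48), and the nearest regions beyond 100 kb were 111243 bp from Vegfa (-0.27) and 114817 bp from Angpt1 (-0.32). Of the 87 regions, 15 were among the lowest 25% of all regions by level and 3 had fewer than 10 counts in some library, with member counts of 5 to 973.

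The other genes of the pathway were taken as a list of 19, of which 18 had 207 regions and Angptl1 had no assigned region. Of these regions 29 were higher and 15 lower in Notch2_cKO, 21.3% called against the background of 23.7%, with a median log2 change of 0.05. Among the co-receptors, which bind VEGF beside its kinase receptors, Nrp1 had 5 higher and 2 lower of 24 regions and Nrp2 had 4 higher and none lower of 25. Adamts3, a protease that takes part in the activation of VEGF-C, had 5 lower and none higher of 16. Thbs2, an inhibitor of angiogenesis, had 6 higher and 1 lower of 27, among them a region 45300 bp from the gene with 7.38 and 8.19 CPM in Notch2_cKO and 2.27 and 1.23 CPM in control libraries (log2 change 2.16, SE 0.23, edgeR Benjamini-Hochberg adjusted p = 1.75e-06). Angpt4, a further angiopoietin, had 4 higher of 11, with 5.99 and 5.56 CPM against 1.78 and 1.74 CPM in control libraries at the one of smallest p (log2 change 1.72). Shb, an adaptor of Kdr, had a region of 23.3 and 24.0 CPM in Notch2_cKO and 11 and 10.5 CPM in control libraries (log2 change 1.14). In all 3 of these regions, at Thbs2, Angpt4 and Shb, the groups were apart. They were named for the smallest p in the list, so this is no further support. Without control replicate 2 the list had 23 higher and 8 lower regions, and without control replicate 1, 23 and 9.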

How the data were processed

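The submitters' processing notes name build mm10, Bowtie2 (2.4.5), Picard (2.27.5), SAMtools (1.14), deepTools, Trim Galore (0.6.7) and cutadapt. The labels also name csaw. Which tool called peaks, and whether reads were shifted for the transposase, is not given in the sources used here. Counts in 678058 overlapping 300-bp windows, as whole numbers, were deposited. The labels call these counts loess-normalized by the authors, but the 4 libraries summed to 196562399 and 80428121 (Notch2_cKO 1 and 2) and 153282978 and 167132696 (control 1 and 2), so they were analysed as counts without normalization.

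Regions and genes were built as described above, with RefSeq genes (GRCm38.p6, 21900 protein-coding). edgeR 4.0.16 (quasi-likelihood, no replicate term) was fitted to all 110110 regions in R 4.3.3, with loess offsets in the manner of csaw computed with limma 3.58.1, and Benjamini-Hochberg adjustment at 0.05. The SE is the change over the square root of F. Simulated counts were used to test the code. Replicates were separate pools per the labels. An exact permutation test of 2 against 2 libraries cannot go below a p of 0.333, so the fit relies on spread shared over regions. Counts per region differed between replicates by more than sampling noise (mean chi-square 2.79 and 1.97), so none was merged. Alternatives were other scalings, DESeq2 1.42.0, limma-trend, a level filter, a threshold of 0.01, other region and gene rules, a replicate block and each library left out. With a library left out, the spread of its group is assumed to be that of the other group.

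Named were, per gene, the start region, the most open region and up to 5 called regions of smallest p, and per other list up to 3 called regions of smallest p, 1 per gene. Other called regions that are given were chosen after their values were seen. The members, lists, motifs and named regions were chosen with earlier results of these data known. No genome sequence was used, so sequences of distal regions are not shown. Sequencing reads were not analysed here. Figures were drawn with Python 3.11.15, pandas 2.3.3 and matplotlib 3.10.9.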

Additional observations from a re-analysis of the deposited data

How the results depend on the processing

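With 2 libraries per group, 18 of the 33 called regions passed in all 4 fits that each left out a library, and 13 did not pass without control replicate 2. Over those 4 fits, regions higher and lower ranged from 11 to 19 and 7 to 14 over the set, 3 to 6 and 6 to 9 at ligands, 8 to 13 and 1 to 5 at receptors, and 8939 to 15497 and 7993 to 14732 over all regions. The median log2 change ranged from -0.19 to -0.02 at ligands and from 0.02 to 0.26 at receptors. DESeq2, which gave 1 member no adjusted p, called 23 of the 33, with 7 lower over the set, 6 lower at ligands and 1 lower at receptors, and 7364 higher and 5433 lower over all regions. At an adjusted p of 0.01 there were likewise 7, 6 and 1 lower, and 8526 and 7031 over all regions. With genes within 10 kb (33 ligand and 26 receptor regions), 10 regions were higher and 11 lower, 6 of the higher ones at receptors and 2 at Flt1, since its upstream regions were then left out. With the nearest gene end the ligand median was 0.00, with 9 ligand regions higher and 7 lower. The ligand median was -0.03 with total counts, -0.17 with each library centred on its median and -0.05 without the lowest 25% of regions, and the receptor median was 0.03 with median centring. The cause of these shifts was not tested. No named region that passed the test changed sign under these alternatives, but such values no longer passed 17 times. The start regions of Vegfa, Vegfb, Flt1 and Kdr and the end region of Angpt1, which did not pass, changed sign under 1 or 2 alternatives each (values there of -0.28 to 0.08). The end region of Angpt2, which did not pass either, had a log2 change of 0.00. Under the alternatives it took either sign, from -0.07 to 0.09. The labels do not say whether equal replicate numbers mark a pairing. The within-group differences had a correlation of -0.179 over regions, which cannot decide this with 4 libraries. With a replicate block, 12207 regions were higher and 10756 lower, 19 and 13 in the set, and 32 of the 33 passed. With the numbers crossed, an alternative chosen after seeing the data, there were 18210 and 16809, and 21 and 19 in the set.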

Other observations

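Genes of oxygen sensing and of the response to low oxygen were measured together as a list of 15 genes with 117 regions. Of these, 18 were higher and 9 lower in Notch2_cKO (23.1% called, beside 23.7% of all regions), with a median log2 change of 0.15. A region in Hif3a, an inhibitory member of the hypoxia-inducible factor family, had 6.50 and 6.27 CPM in Notch2_cKO and 16.7 and 16.8 CPM in control libraries (log2 change -1.39, SE 0.15, edgeR Benjamini-Hochberg adjusted p = 1.94e-06), and 4 of its 6 regions were lower. A region in Egln3, an oxygen-sensing hydroxylase, had 7.25 and 6.80 CPM against 2.54 and 2.14 CPM in control libraries (log2 change 1.60, edgeR Benjamini-Hochberg adjusted p = 6.42e-06). A region 8774 bp from Ldha, a glycolytic enzyme gene, had 5.07 and 5.22 CPM in Notch2_cKO and 13.3 and 12.1 CPM in control libraries (log2 change -1.31). In these 3 regions the groups were apart, but they were named for the smallest p in the list, so this is no further support. Bnip3, a mitochondrial hypoxia target, had 3 higher of 4 regions. Without control replicate 2 the list had 11 higher and 7 lower regions.

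Marker genes of lymphatic endothelium, the main site of Flt4, had no higher and 8 lower of 49 regions. That is 16.3% lower, beside 11.2% lower and 23.7% called in either direction over all regions. Of the 8 lower regions, 6 were among the 18 at Reln. Mmrn1 and Stab2 had 1 each, and Prox1, Lyve1 and Foxc2 had none. The summed level was 220 and 236 CPM in Notch2_cKO and 274 and 268 CPM in control libraries. A region in Reln had 3.40 and 3.88 CPM in Notch2_cKO and 10.5 and 10.6 CPM in control libraries, a log2 change of -1.56 with groups apart (edgeR Benjamini-Hochberg adjusted p = 2.6e-06). Leukocyte marker genes had 3 lower and no higher of 27 regions, 11.1%, beside 11.2% lower over all regions. Reticular fibroblast marker genes had 18 higher and 11 lower of 160 regions (18.1% called), or 13 higher and 15 lower with each library centred on its median, with a summed level of 1467 and 1599 CPM in Notch2_cKO and 1485 and 1499 CPM in control libraries. Without control replicate 1 those counts were 10 and 7, and without control replicate 2 they were 17 and 7.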
